A study of Mus musculus with 16 samples.

Results

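The peroxisome proliferator-activated receptors (PPARs) and the retinoid X receptors (RXRs) are nuclear receptors, transcription factors that are switched by small lipid-soluble ligands. The 6 mouse genes that encode them are Ppara, Ppard and Pparg for PPARα, PPARβ/δ and PPARγ, and Rxra, Rxrb and Rxrg for RXRα, RXRβ and RXRγ. They were chosen by name, and all 6 were found among the 22180 genes measured in mouse kidney with a probe set annotated to a single gene symbol. Each was read by 1 such probe set, namely 17313862 for Ppara, 17335297 for Ppard, 17461942 for Pparg, 17368550 for Rxra, 17336322 for Rxrb and 17219110 for Rxrg. Of the 6 receptors, 1 passed the test in 1 of 7 comparisons: Ppara was 1.15-fold higher on a high fat diet (HFD) than on chow when both genotypes were averaged. The other 5 receptor genes passed in none.

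Total RNA of whole kidney was hybridised to 16 Affymetrix mouse gene arrays, 4 for each of 4 groups of male mice. The groups were HFD NiPKO, HFD CTRL, Chow NiPKO and Chow CTRL. NiPKO stands for a nephron-specific inducible knockout of PGC-1α, a coactivator of nuclear receptors encoded by Ppargc1a. These mice carried the Pax8-rtTA transgene, a Cre transgene under tetracycline control ((tetO-cre)-LC1) and both copies of the PGC-1α gene floxed (PGC-1αfl/fl), so that Cre removes exons 3 to 5. The deletion was induced with doxycycline (DOX), given at 0.2 mg/ml in drinking water with 2% sucrose for 2 weeks at 12 weeks of age. Pax8-rtTA acts along the renal tubule and spares the glomerulus, and recombination was also seen in liver. The CTRL mice were littermates. The sources do not state which of these alleles the littermates carried or whether they received DOX. Fat made up 10 kcal% of the chow and 60 kcal% of the HFD (D12492), and the diets lasted 20 weeks by the design text and 5 months by the paper's account.

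A PPAR binds DNA as a dimer with an RXR. Without ligand the dimer can hold corepressors at a gene, and with ligand it exchanges them for coactivators such as PGC-1α. PPARα, whose ligands are fatty acids and fibrate drugs, drives the genes of fatty acid uptake and oxidation and is abundant in the proximal tubule. PPARβ/δ is found in most tissues and shares many of these genes. PPARγ, the receptor of the thiazolidinedione drugs, is best known for adipocyte differentiation and in kidney also acts in the collecting duct and the glomerulus. The RXRs bind 9-cis retinoic acid and pair with many other nuclear receptors, among them those of retinoic acid, thyroid hormone, vitamin D, oxysterols and bile acids.

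The arrays were alike in depth of signal, with medians of 5.35 to 5.4 on the log2 scale and correlations of 0.9863 to 0.9917 between any pair. All 10 proximal tubule markers (Slc34a1 and Lrp2 among them) and all 10 distal nephron markers (Umod and Slc12a1 among them) lay above the median gene level of 5.94. All 7 adrenal cortex and all 8 skeletal muscle markers lay below it. The probe set of the deleted gene, Ppargc1a (17448001), read 9.96, 9.96, 10.07 and 9.96 in HFD NiPKO and 9.57, 9.52, 9.45 and 9.32 in HFD CTRL kidneys, and 9.91, 10.18, 10.05 and 10.09 in Chow NiPKO and 9.68, 9.59, 9.56 and 9.6 in Chow CTRL kidneys. Every sample labelled NiPKO lay above every sample labelled CTRL. The difference was 0.52 on HFD and 0.45 on chow on the log2 scale (SE 0.07 each, adjusted p = 0.0013 and 0.0026 from limma). Where its probes lie relative to exons 3 to 5 was not analysed here, and they need not all lie inside or all outside them. Probes outside these exons check nothing. Only if all probes lie inside them would the reading go against the labels, so that it decides nothing about the deletion. By other means, the paper reports recombination of these exons and much lower PGC-1α mRNA in the kidney of NiPKO mice. Those measurements are not used here. In every comparison of genotypes below, NiPKO and CTRL stand for the samples labelled so.

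Fold changes and tests come from 1 limma model of all 16 arrays in which each group has its own mean. A gene is called changed at a Benjamini-Hochberg adjusted p under 0.05 over all 22180 genes. The 7 comparisons are the effect of diet in each genotype, the effect of genotype on each diet, each of these averaged, and the interaction of genotype and diet, which is the effect of HFD in NiPKO minus that in CTRL. When the 2 groups of a comparison were fitted alone, the calls between 2 groups of Acaa2, Eci1, Lpl, Etfdh and Slc2a4 given below were lost. Comparisons that use the same group share its arrays, so that their values are not independent. Groups that do not overlap are reported for several genes below. Between genotypes this held for 7.44% of all genes on chow and 6.88% on HFD. Between diets it held for 7.12% in CTRL and 8.24% in NiPKO kidneys. The sample titles number biological replicates, 4 in each group, and the animals behind them are not named. The spread between these samples is thus what the p-values measure.

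Ppara was higher on HFD. Its log2 values were 9.02, 8.99, 9.09 and 8.98 in HFD NiPKO kidneys and 9.1, 9, 9.17 and 9.06 in HFD CTRL kidneys. They were 8.72, 8.74, 8.81 and 8.82 in Chow NiPKO kidneys and 8.82, 9.11, 8.97 and 8.81 in Chow CTRL kidneys. Every HFD NiPKO value lay above every Chow NiPKO value, while among the chow samples Chow CTRL replicate 2, at 9.11, reached into the range of the HFD samples. Averaged over the genotypes, the log2 fold change of HFD against chow was 0.20 (SE 0.05, 95% interval 0.10 to 0.30), and Ppara rose by this test (adjusted p = 0.028 from limma). In all, 3.14% of the 22180 genes were called in this comparison, 1.43% as higher on HFD.

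The rise of Ppara could not be assigned to 1 genotype. In NiPKO kidneys the log2 fold change of HFD against chow was 0.25 (SE 0.07, adjusted p = 0.11 from limma), in a comparison where the groups of 8.24% of all genes do not overlap. In CTRL kidneys it was 0.15 (SE 0.07, adjusted p = 0.33 from limma). The interaction was 0.10 with a 95% interval of -0.10 to 0.29 (adjusted p = 0.82 from limma). The order of the group means was HFD CTRL at 9.08, HFD NiPKO at 9.02, Chow CTRL at 8.93 and Chow NiPKO at 8.77, with SDs of 0.07, 0.05, 0.14 and 0.05 (n = 4 each). Of the neighbours in this order, the difference between the genotypes did not pass the test on either diet, and HFD NiPKO was not tested against Chow CTRL. On HFD, the value in NiPKO kidneys minus that in CTRL kidneys was -0.06 (SE 0.07, adjusted p = 0.79 from limma), and on chow it was -0.16 (SE 0.07, adjusted p = 0.33 from limma). The call for diet was lost when each array was centred on its median (adjusted p = 0.053 from limma). It was also lost without Chow CTRL replicate 4, Chow NiPKO replicate 2, HFD CTRL replicate 1, HFD CTRL replicate 3 or HFD NiPKO replicate 3, where the adjusted p reached at most 0.064, while the log2 fold change stayed between 0.18 and 0.23.

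**Figure D1:**
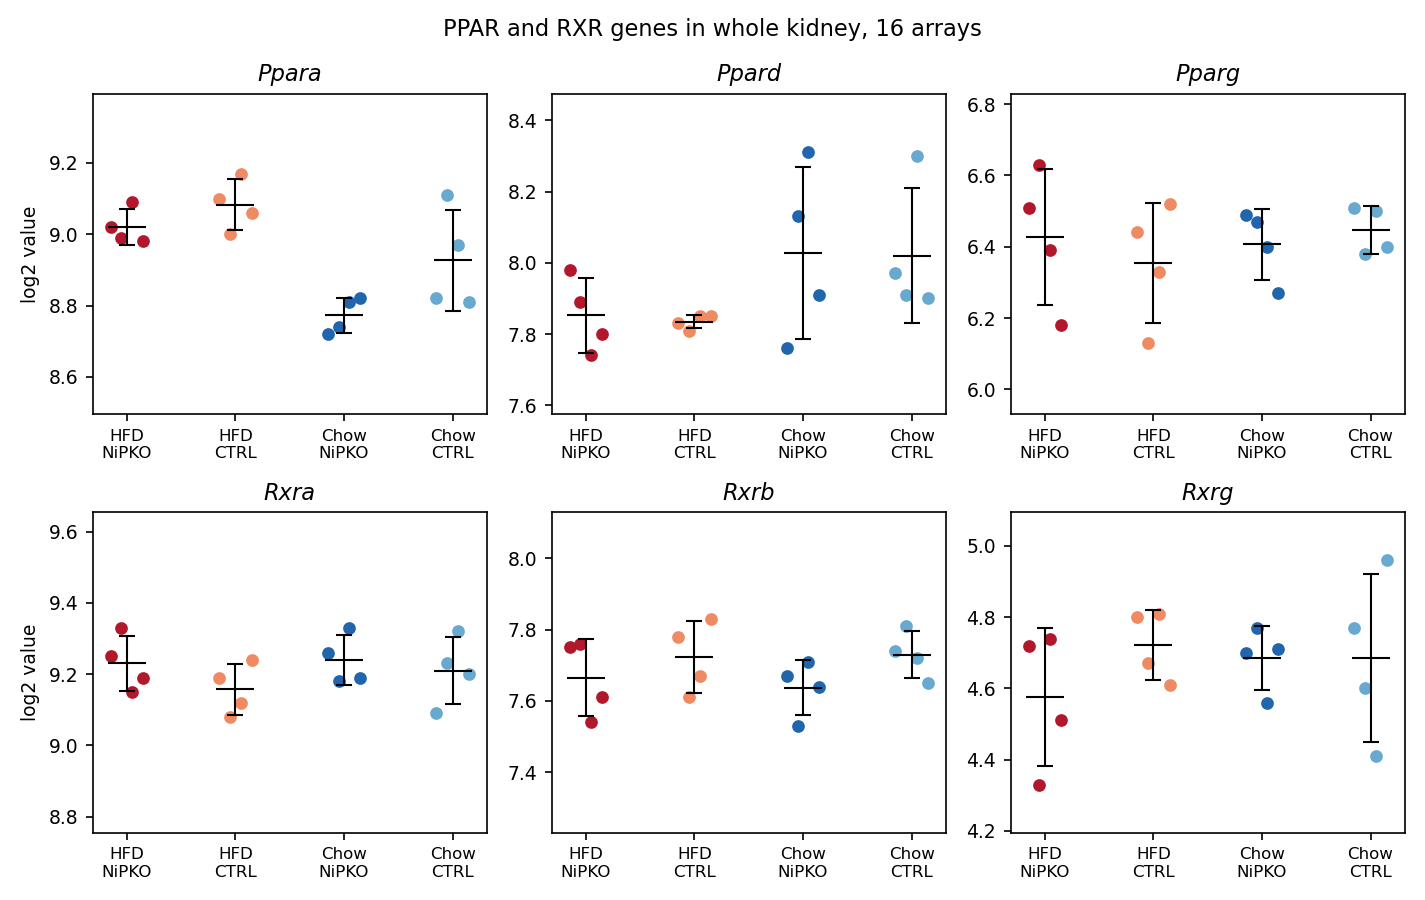
Log2 value of each receptor gene (y axis, the same span of 0.9 in all 6 panels) in the 4 samples of each group (x axis), with black bars for the mean and 1 SD. Ppara lies between 8.98 and 9.17 on HFD and between 8.72 and 9.11 on chow, while the groups of Rxra, Rxrb and Pparg overlap throughout.

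Ppard values ran the other way with diet, and the difference did not pass the test. They were 7.98, 7.89, 7.74 and 7.8 in HFD NiPKO kidneys and 7.83, 7.81, 7.85 and 7.85 in HFD CTRL kidneys. In Chow NiPKO kidneys they were 7.76, 8.13, 8.31 and 7.91 and in Chow CTRL kidneys 7.97, 7.91, 8.3 and 7.9. All HFD CTRL values lay below all Chow CTRL values, which was the case in either direction for 7.12% of all genes. In NiPKO kidneys the diets overlapped. The third replicate of each chow group was the highest of its group. Averaged over the genotypes, the log2 fold change was -0.18 (SE 0.08, 95% interval -0.34 to -0.02, adjusted p = 0.24 from limma). Between the genotypes the means differed by 0.02 or less on either diet (SE 0.11), with a 95% interval of -0.21 to 0.24 on HFD and -0.22 to 0.23 on chow.

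Pparg lay between 6.13 and 6.63 on all 16 arrays. It was 6.51, 6.63, 6.39 and 6.18 in HFD NiPKO and 6.44, 6.13, 6.33 and 6.52 in HFD CTRL kidneys, against 6.49, 6.47, 6.4 and 6.27 in Chow NiPKO and 6.51, 6.38, 6.5 and 6.4 in Chow CTRL kidneys. The groups overlapped in every comparison, and the lowest and the highest sample were both on HFD. The means were 6.43 ± 0.19 in HFD NiPKO kidneys and 6.35 ± 0.17 in HFD CTRL kidneys, and 6.4 ± 0.1 in Chow NiPKO kidneys and 6.45 ± 0.07 in Chow CTRL kidneys (SD, n = 4 each). The largest of its differences between 2 groups was -0.10 for HFD against chow in CTRL kidneys (SE 0.09, adjusted p = 0.73 from limma). Its range of group means, 0.0964, was smaller than the SD within groups, 0.141.

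Rxra encodes the RXR that predominates in liver and kidney. It lay between 9.08 and 9.33 on all arrays. Its values were 9.25, 9.33, 9.15 and 9.19 in HFD NiPKO and 9.19, 9.08, 9.12 and 9.24 in HFD CTRL kidneys, and 9.26, 9.18, 9.33 and 9.19 in Chow NiPKO and 9.09, 9.23, 9.32 and 9.2 in Chow CTRL kidneys. No 2 groups were apart, with means of 9.23 ± 0.08 in HFD NiPKO, 9.16 ± 0.07 in HFD CTRL, 9.24 ± 0.07 in Chow NiPKO and 9.21 ± 0.09 in Chow CTRL kidneys (SD, n = 4 each). The 95% interval of its mean diet effect was -0.12 to 0.06 and that of its mean genotype effect -0.04 to 0.14, on the log2 scale. These intervals leave out a change of 1.2-fold in either direction.

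Rxrb, found in most tissues, lay between 7.53 and 7.83. Its values were 7.75, 7.76, 7.54 and 7.61 in HFD NiPKO and 7.78, 7.61, 7.67 and 7.83 in HFD CTRL kidneys, against 7.67, 7.53, 7.71 and 7.64 in Chow NiPKO and 7.74, 7.81, 7.72 and 7.65 in Chow CTRL kidneys. NiPKO minus CTRL was -0.06 on HFD and -0.09 on chow (SE 0.07 each, adjusted p = 0.82 and 0.64 from limma), and the groups overlapped on both diets.

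Rxrg, a receptor of muscle and nervous tissue, lay between 4.33 and 4.96 and below the median of its array on all 16 arrays. It was 4.72, 4.33, 4.74 and 4.51 in HFD NiPKO and 4.8, 4.67, 4.81 and 4.61 in HFD CTRL kidneys, and 4.7, 4.77, 4.56 and 4.71 in Chow NiPKO and 4.77, 4.6, 4.41 and 4.96 in Chow CTRL kidneys, and all groups overlapped. HFD NiPKO kidneys had the lowest mean, 4.58 ± 0.19, against 4.72 ± 0.1 in HFD CTRL kidneys (SD, n = 4 each). That difference, -0.15 on the log2 scale, had an SE of 0.11 and an adjusted p of 0.68 from limma. Chow NiPKO and Chow CTRL kidneys had means of 4.68 and 4.69. The signal over background of the probe set is not known from these values.

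Across the 2-group comparisons, 0 of the 6 receptors were called for NiPKO against CTRL on chow, where 1.28% of all genes were called, and 0 on HFD, where the share was 0.825%. None was called for HFD against chow in CTRL kidneys (0.564% of all genes) or in NiPKO kidneys (0.261% of all genes). For NiPKO against CTRL averaged over both diets the count was again 0, with 2.68% of all genes called, and for the interaction it was 0, with 0 of all genes called. At an unadjusted p under 0.05 the counts were 1, 0, 1, 1, 1 and 0 in the same order, against 12.5%, 10.8%, 13.1%, 13.4%, 13.5% and 8.24% of all genes. The count for HFD against chow over both genotypes was 2 at that level, Ppara and Ppard, against 16% of all genes. The thresholds of the paper's array analysis were a fold change over 1.2 and an unadjusted p under 0.05. At these the count was 0 in all 7 comparisons. For NiPKO against CTRL 4.42% of all genes passed them on chow, 3.72% on HFD and 2.42% averaged, and for HFD against chow 4.64% in CTRL kidneys, 4.47% in NiPKO kidneys and 2.7% averaged, with 5.74% for the interaction. The receptor with the largest fold change, Ppara in NiPKO kidneys, reached 1.19-fold.

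**Figure D2:**
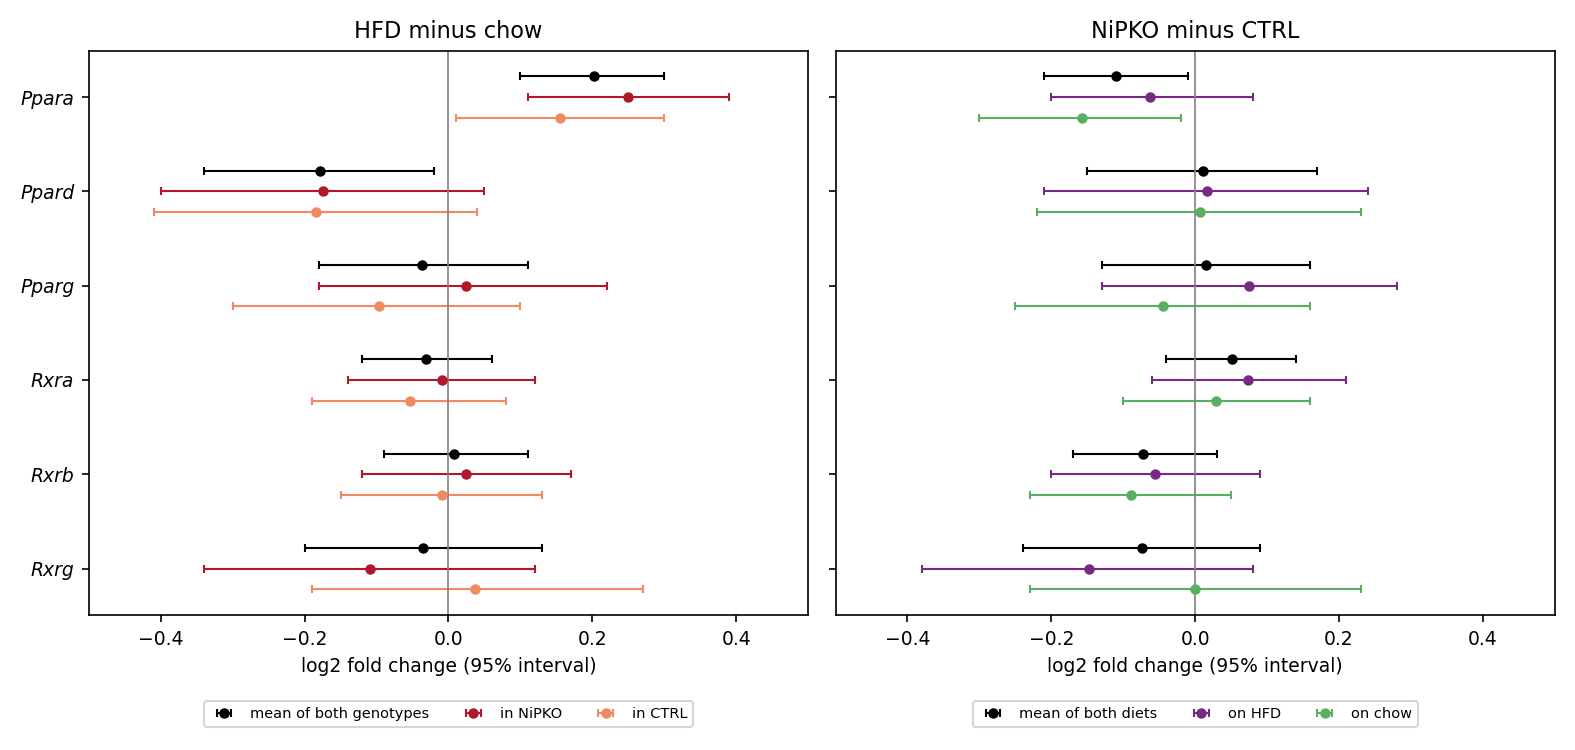
Log2 fold change of each receptor gene (x axis) with its 95% interval from limma, for HFD minus chow on the left and NiPKO minus CTRL on the right, averaged (black) and within each genotype or diet (colours). The 3 intervals of Ppara for HFD lie above 0, and the averaged value is 0.20.

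The genes whose values followed each receptor most closely over the 16 samples were ranked by Pearson r among 17238 genes. These are the top values of a long ranking, the samples share the 4 groups, and no p is given. For Ppara they were Ric1 (r = 0.89), Gas6 (r = 0.88) and Rasa3 (r = 0.87). After the group means were subtracted r was 0.66, 0.54 and 0.82 for these 3 genes, so that part of the likeness of Ric1 and Gas6 lay between the groups. For Ppard, Prkcz, Aamp and Dapl1 led with r of 0.86 to 0.87, and for Pparg, Tmem67, Ly6e and Smurf2 with r of 0.81 to 0.82. The genes most like Rxra were Rnpepl1, Tmem106a and Ehd1 (r of 0.86 to 0.87), those most like Rxrb were Smim26, Ogfod3 and Pet100 (r of 0.82 to 0.84), and those most like Rxrg were Ropn1, Sft2d3 and Fnbp1l (r of 0.77 to 0.83). Among the 3 genes named for Rxra, r after subtraction of the group means was highest for Rnpepl1, at 0.93. No receptor was among the leading genes of another.

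Markers of other kidney cell types were examined in the comparison in which Ppara was called. Of the 8 endothelial markers, 1 was called and 7 lay above 0 for HFD against chow over both genotypes, with a median log2 fold change of 0.14 against 0.0072 for all genes. In this comparison 1.43% of all genes were called as higher and 1.71% as lower. Tek, the angiopoietin receptor, rose by 0.25 (adjusted p = 0.011 from limma). The mean log2 level of the 8 markers ranged from 9.04 to 9.11 in HFD NiPKO, from 9.09 to 9.19 in HFD CTRL, from 8.88 to 8.92 in Chow NiPKO and from 9.01 to 9.12 in Chow CTRL kidneys. The summed linear level was 4937 to 5224, 5104 to 5421, 4473 to 4620 and 4794 to 5166 in these groups. For NiPKO against CTRL on chow all 8 lay below 0, with a median of -0.12. All 8 lay above the median gene level, the lowest being Pecam1 at 8.23. For HFD against chow over both genotypes, all 4 podocyte markers lay above 0 as well. Of these 1 was called, Podxl, which rose by 0.21 (adjusted p = 0.019 from limma). Of 10 distal nephron markers 7 lay below 0, with a median of -0.06, and 1 was called as lower. Among 9 leukocyte and 8 adipocyte markers, 1 of each list was called as higher. The 10 proximal tubule markers had a median of 0.01, although Slc13a3, a dicarboxylate transporter, rose by 0.37 (adjusted p = 0.0019 from limma). Their part in the change of Ppara was not tested. In whole kidney, fewer cells of a type and less RNA per cell cannot be told apart.

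**Figure D3:**
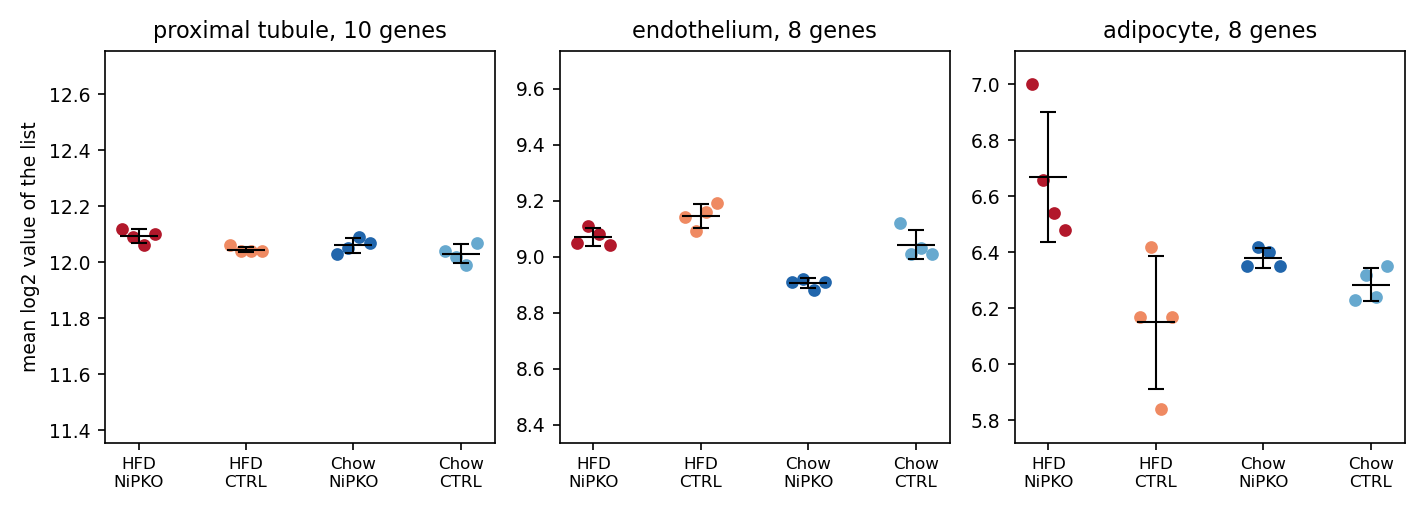
Mean log2 value (y axis) of the markers of proximal tubule, endothelium and adipocytes in each sample of the 4 groups (x axis), with black bars for the mean and 1 SD. Proximal tubule stays between 11.99 and 12.12, endothelium is lowest in Chow NiPKO kidneys at 8.88 to 8.92, and adipocyte markers are highest in HFD NiPKO kidneys at 6.48 to 7.

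PPAR:RXR dimers bind a direct repeat of the hexamer AGGTCA with 1 base of any kind between the copies, called DR1. To show what such a site looks like in the genes measured, RefSeq promoter windows of build GRCm38.p6 were searched on both strands for this repeat, with at least 10 of its 12 specified bases matched. The windows run from 250 bases before to 50 bases after a gene's start. A match was found in 3.86% of 32851 windows and for 4.4% of 27025 genes. Of 43 measured PPARα target genes 36 had a window and 8 of these held a match (22.2%), and 1 of 11 windows of the 6 receptor genes did, at a start of Rxra. A match is a description and not a binding site. The sequences of these 9 matches follow, 5′ to 3′ on the strand of the gene with the matched 13 bases in capitals. Since the search admitted at most 2 mismatches, they do not show how far promoter sequence in general departs from the consensus.
Fabp1: acaatcacTGACCTATGGCCTatatctga
Slc25a20: ctgaatgtAGGTGAAAGGTCGgcggagcc
Cd36: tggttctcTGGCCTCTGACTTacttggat
Plin2: agctttcaGGACCCCTGACCTaagtcaga
Acot4: ccgaagcaTGACCTTTGGCCGgtctgtgc
Creb3l3: ctgtaagtAGGGGAGAGGTCAcacagacc
Cat: actctcagAGGTCAGAGAACAccagcagg
Ucp3: tcagaattAGGTTTCAGGTCAgctggtgc
Rxra: ctgagtaaTGGTCATAGGCCAgtgggtgg

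The match nearest to the consensus, with 11 of 12 bases, was that of Fabp1, which encodes the liver fatty acid-binding protein and is a long-known PPARα gene. The intervals given here span the whole printed sequence, with the flanking bases in small letters. For Fabp1 the interval is chr6:71199804-71199832 on the + strand, and the centre of the match is 61 bases before the start. The match of Slc25a20, the mitochondrial carrier of acylcarnitines, lies at chr9:108662134-108662162 on the + strand. That of Cd36, the fatty acid translocase, lies at chr5:17835939-17835967 on the - strand, 57 bases before the start. The match of Rxra lies at chr2:27709209-27709237 on the + strand. Those of Acot4 (chr12:84038358-84038386) and Ucp3 (chr7:100472932-100472960) are on the + strand as well, and those of Plin2 (chr4:86670264-86670292), Creb3l3 (chr10:81092780-81092808) and Cat (chr2:103485337-103485365) on the - strand. The 4 with the repeat read on the other strand (Fabp1, Cd36, Plin2 and Acot4) show it as its reverse complement.

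Of the 8 genes with a match, only Cd36 was called for HFD against chow. This was over both genotypes, where 3.14% of all genes were called. A difference in response between the 8 genes was not tested. Averaged over the genotypes, the log2 fold change was 0.21 for Creb3l3, 0.19 for Plin2, 0.08 for Cat, 0.07 for Acot4 and -0.06 for Ucp3. Fabp1 was 3.59, 4.53, 4.58 and 4.17 in HFD NiPKO kidneys and 4.05, 5.38, 5.06 and 3.97 in HFD CTRL kidneys, against 3.59, 3.59, 3.8 and 4.08 in Chow NiPKO and 3.78, 3.7, 3.83 and 3.72 in Chow CTRL kidneys. The CTRL diets did not overlap, and within HFD CTRL kidneys replicates 2 and 3 stood above replicates 1 and 4. The log2 fold change of Fabp1 on HFD was 0.45 in NiPKO and 0.86 in CTRL kidneys (SE 0.27 each, adjusted p = 0.5 and 0.18 from limma). Over both genotypes it was 0.66 (adjusted p = 0.075 from limma), and the interaction was -0.41 (adjusted p = 0.81 from limma). All its values lay below the median gene level of 5.94. Its values were taken up after they had been seen. Slc25a20 values were 8.9, 8.66, 9.09 and 8.92 in HFD NiPKO and 8.97, 9.29, 9.46 and 9.15 in HFD CTRL kidneys, against 8.91, 8.36, 8.71 and 8.79 in Chow NiPKO and 8.92, 8.92, 8.65 and 8.67 in Chow CTRL kidneys. Its log2 fold change on HFD was 0.20 in NiPKO kidneys, where the diets overlapped, and 0.43 in CTRL kidneys, where they did not (SE 0.13 each), and over both genotypes it missed the threshold (0.31, adjusted p = 0.069 from limma). Cd36 fell on HFD over both genotypes by 0.23 on the log2 scale (SE 0.06, adjusted p = 0.048 from limma). When each of the 16 samples was left out in turn, this call held in 2 fits.

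The 43 measured PPARα target genes, listed from general knowledge of the pathway, lay mostly above 0 for HFD against chow. In NiPKO kidneys their median log2 fold change was 0.07, against 0.0026 for all genes, and 30 of 43 lay above 0. In CTRL kidneys the median was 0.19, against 0.009 for all genes, and 35 of 43 lay above 0. None was called in NiPKO kidneys, where 0.126% of all genes were called as higher and 0.135% as lower, and 2 were called as higher on HFD in CTRL kidneys (Acaa2 and Eci1), where 0.176% of all genes were. For the interaction the median was -0.15, 36 of 43 lay below 0 and 0 were called, while 2 had an unadjusted p under 0.05. The interaction of no gene on the array was called, the smallest adjusted p being 0.12 from limma. Members of this list were picked out in the study from these samples, so its direction is not independent evidence.

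**Figure D4:**
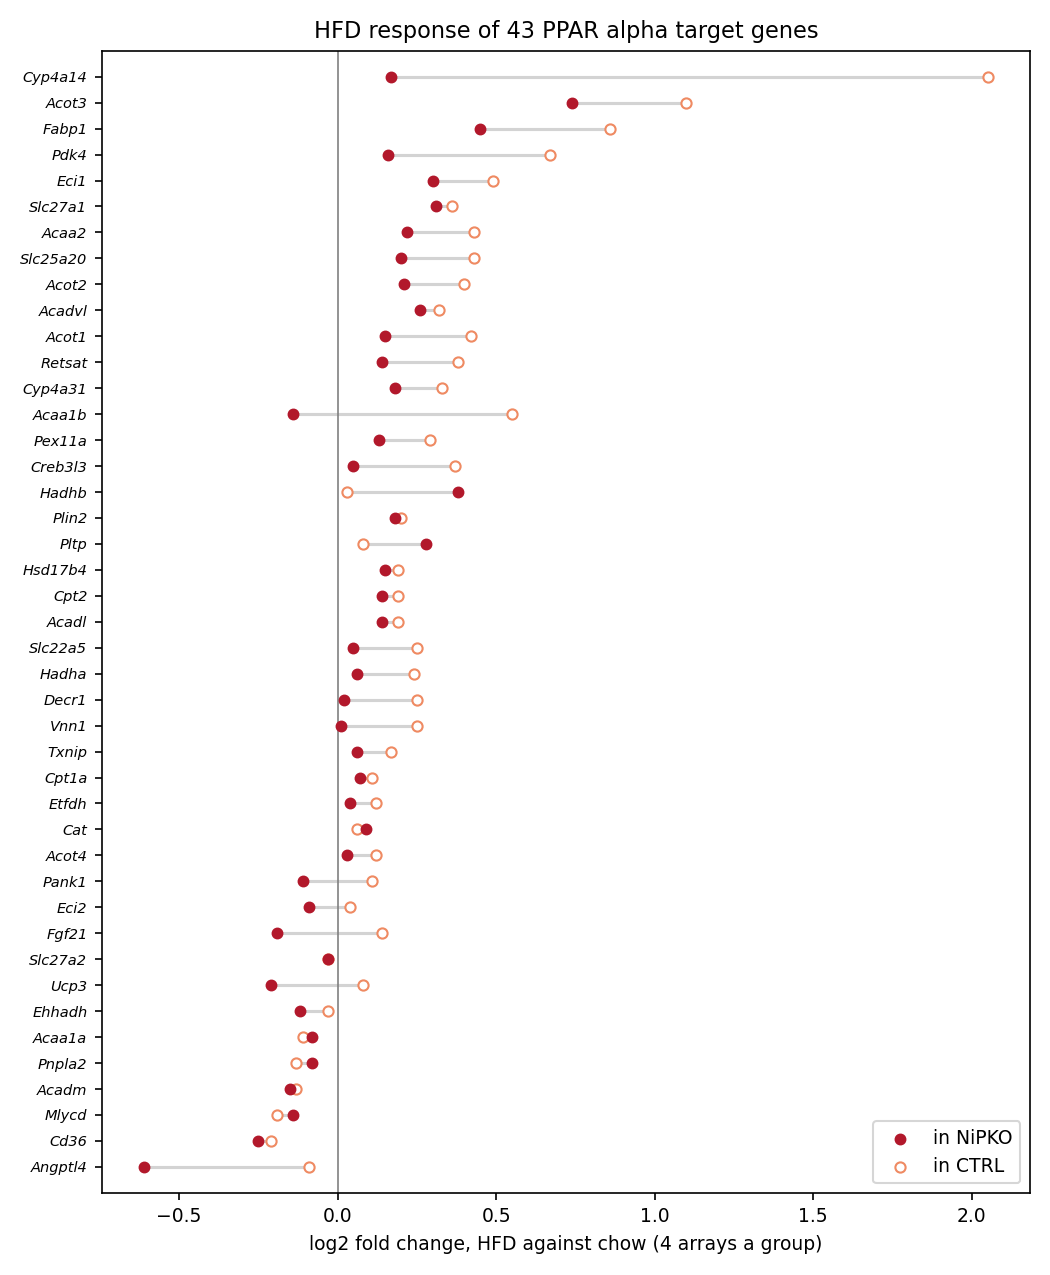
Log2 fold change of HFD against chow (x axis) for each of the 43 measured PPARα target genes (y axis, ordered by the mean of both genotypes), in NiPKO (filled) and in CTRL kidneys (open), from 4 samples a group. Of the 43 genes, 30 lie above 0 in NiPKO and 35 in CTRL kidneys.

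Acaa2, the thiolase of the last step of mitochondrial β-oxidation, was 10.87, 10.98, 11.03 and 11.08 in HFD NiPKO and 11.22, 11.52, 11.44 and 11.2 in HFD CTRL kidneys. On chow it was 10.82, 10.68, 10.71 and 10.87 in NiPKO and 10.97, 11.09, 10.82 and 10.77 in CTRL kidneys. All HFD CTRL values lay above all other samples. The difference on HFD was 0.22 in NiPKO kidneys (SE 0.09, adjusted p = 0.28 from limma). In CTRL kidneys it rose by 0.43 (SE 0.09, adjusted p = 0.033 from limma), and the interaction was -0.22 (SE 0.12, adjusted p = 0.67 from limma). The call in CTRL kidneys was lost without Chow CTRL replicate 1, 3 or 4 or HFD CTRL replicate 2 or 3 (adjusted p up to 0.13), and with the methods' test of the 2 groups (adjusted p = 0.29).

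Eci1, a mitochondrial enoyl-CoA isomerase of unsaturated fatty acid oxidation, was 9.49, 9.65, 9.82 and 9.87 in HFD NiPKO and 9.74, 10.12, 10.01 and 9.88 in HFD CTRL kidneys. It was 9.54, 9.27, 9.31 and 9.5 in Chow NiPKO and 9.51, 9.52, 9.5 and 9.23 in Chow CTRL kidneys. The diets were apart in CTRL kidneys and overlapped in NiPKO kidneys. The difference on HFD was 0.30 in NiPKO kidneys (SE 0.10, adjusted p = 0.20 from limma), and in CTRL kidneys it rose by 0.49 (SE 0.10, adjusted p = 0.037 from limma). The call in CTRL kidneys held without HFD CTRL replicate 1 or 4 and was lost without any of the other 6 CTRL samples (adjusted p up to 0.13).

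Averaged over the genotypes, 5 PPARα targets rose on HFD and 2 fell, where 1.43% and 1.71% of all genes did. No single sample decided the calls of Eci1, Acaa2 and Acot2. The 5 were Eci1 (0.40, adjusted p = 0.0067), Acaa2 (0.33, adjusted p = 0.0081), Acot2 (0.30, adjusted p = 0.017), Acadvl (0.29, adjusted p = 0.023) and Acot3 (0.92, adjusted p = 0.039), all as log2 fold changes from limma. Acot2 and Acot3 encode thioesterases that release fatty acids from CoA in mitochondria and peroxisomes, and Acadvl the very long-chain acyl-CoA dehydrogenase. The 2 that fell were Cd36 and Acadm, the medium-chain acyl-CoA dehydrogenase (-0.14, adjusted p = 0.048 from limma). Their calls depended on single samples, since Acadm kept its call without 1 of the 16 samples in turn and Cd36 without 2. Acot3, whose values spread from 5.87 to 8.65, kept its call without 6 of the 16, and Acadvl without 13.

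**Figure D5:**
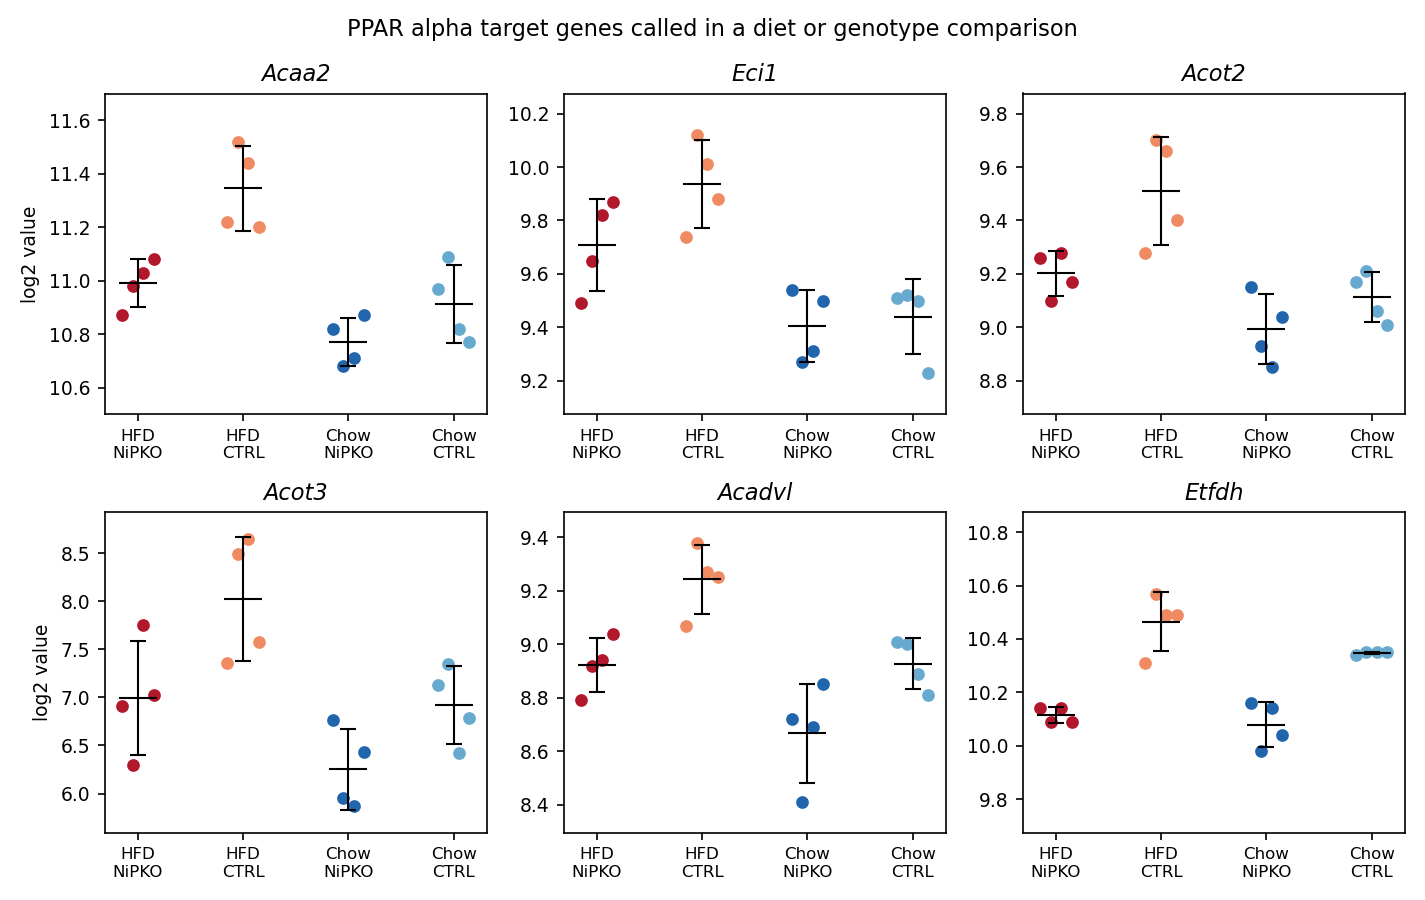
Log2 value (y axis, spans differ between panels) of 6 PPARα target genes in the 4 samples of each group (x axis), with black bars for the mean and 1 SD. HFD CTRL kidneys hold the highest mean of Acaa2, Eci1, Acot2, Acot3, Acadvl and Etfdh, and the Etfdh values of the genotypes do not overlap on either diet.

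Set against genotype, the same list lay lower in NiPKO kidneys. Its median was -0.19 on HFD, with 40 of 43 genes below 0, and -0.03 on chow, with 28 of 43 below 0, while the medians of all genes were 0.0016 and 0.0067. The comparison on HFD shares the HFD CTRL samples with the diet effect above. Etfdh, which passes electrons from acyl-CoA dehydrogenases to ubiquinone, was the 1 target called on each diet, as lower in NiPKO kidneys like 0.974% of all genes on chow and 0.595% on HFD. As higher, 0.302% and 0.23% of all genes were called on these diets and no target was. Its values were 10.14, 10.09, 10.14 and 10.09 in HFD NiPKO kidneys, against 10.31, 10.57, 10.49 and 10.49 in HFD CTRL kidneys. On chow they were 10.16, 9.98, 10.14 and 10.04 in NiPKO kidneys, against 10.34, 10.35, 10.35 and 10.35 in CTRL kidneys. The genotypes did not overlap on either diet, which held for 6.88% of all genes on HFD and for 7.44% on chow. The averaged log2 fold change was -0.31 (SE 0.04, adjusted p = 0.00033 from limma). On chow alone the call was lost without any of the 4 CTRL samples or without NiPKO replicate 2 or 4 (adjusted p up to 0.11).

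Averaged over the diets, 5 targets fell in NiPKO kidneys and none rose, where 1.83% and 0.852% of all genes did. Beside Etfdh these were Acadvl (-0.29, adjusted p = 0.019), Acadl, the long-chain acyl-CoA dehydrogenase (-0.24, adjusted p = 0.021), Retsat, the retinol saturase (-0.49, adjusted p = 0.024), and Acaa2 (-0.25, adjusted p = 0.035), as log2 fold changes from limma. Acaa2 kept its call without 7 of the 16 samples, Acadl without 14, Retsat without 13, and Acadvl and Etfdh without each of them. The adjusted p of Acaa2 ranged up to 0.081 and that of Retsat up to 0.057.

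Acot2, called for diet over both genotypes, is given here by sample and does not stand for every diet call. It was 9.26, 9.1, 9.28 and 9.17 in HFD NiPKO and 9.28, 9.7, 9.66 and 9.4 in HFD CTRL kidneys, against 9.15, 8.93, 8.85 and 9.04 in Chow NiPKO and 9.17, 9.21, 9.06 and 9.01 in Chow CTRL kidneys. The diets did not overlap in CTRL kidneys and overlapped in NiPKO kidneys, where replicate 1 on chow, at 9.15, exceeded replicate 2 on HFD, at 9.1. Its difference was 0.21 in NiPKO kidneys (adjusted p = 0.33 from limma) and 0.40 in CTRL kidneys (adjusted p = 0.067 from limma), and the interaction was -0.19 (adjusted p = 0.73 from limma). Other genes of the list with a small p between 2 groups did not pass the adjustment. Among them, Hadhb, a subunit of the mitochondrial trifunctional protein, had -0.47 for NiPKO against CTRL on chow (adjusted p = 0.11 from limma). The Hadhb values ran from 5.32 to 6.53, around the median gene level of 5.94. Pltp, the phospholipid transfer protein, had 0.28 for HFD against chow in NiPKO kidneys (adjusted p = 0.12 from limma).

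Cyp4a14, a fatty acid ω-hydroxylase and a strong PPARα gene, had the largest log2 fold change of the list on HFD in CTRL kidneys, 2.05 (SE 0.64, adjusted p = 0.17 from limma). It is described because of this size, seen in the data. Its values were 10.58, 11.75, 12.13 and 12.06 in HFD NiPKO and 12.03, 12.41, 12.24 and 12.1 in HFD CTRL kidneys. In Chow NiPKO kidneys they were 12.12, 10.85, 11.6 and 11.27 and in Chow CTRL kidneys 11.39, 11.47, 7.41 and 10.28. Chow CTRL replicate 3 lay far below the other 15 samples, and the SD of that group was 1.9. Without that sample the log2 fold change in CTRL kidneys was 1.1 (adjusted p = 0.22 from limma), beside 1.10 for Acot3 over all samples. Near-identical members of the Cyp4a family can share probes, so the reading may not be of this gene alone.

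The 21 measured PPARγ targets were split in direction. For HFD against chow 15 of 21 lay above 0 in NiPKO kidneys, with a median of 0.11, and 11 of 21 in CTRL kidneys, with a median of 0.03 that changed sign to -0.073 when only the brighter genes were kept. The median was 0.12 for NiPKO against CTRL on HFD and -0.02 on chow. Slc2a4, the insulin-regulated glucose transporter GLUT4, was lower in NiPKO kidneys. On HFD it was 7.51, 7.56, 7.32 and 7.32 in NiPKO and 7.98, 7.91, 7.78 and 7.61 in CTRL kidneys, and on chow 7.35, 6.99, 7.37 and 7.39 in NiPKO and 8.29, 8.13, 7.59 and 7.99 in CTRL kidneys. The genotypes did not overlap on either diet. The difference on HFD was -0.39 (SE 0.13, adjusted p = 0.25 from limma), while on chow it fell by 0.73 on the log2 scale (SE 0.13, adjusted p = 0.0094 from limma), and the interaction did not pass (0.34, adjusted p = 0.66 from limma).

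Averaged over the genotypes, 3 PPARγ targets rose on HFD and 2 fell, where 1.43% and 1.71% of all genes did. Cebpa, an adipogenic transcription factor, rose by 0.49 (adjusted p = 0.021), Pck1, the gluconeogenic enzyme of the proximal tubule, by 0.37 (adjusted p = 0.0028), and Agpat2, an acyltransferase of triglyceride synthesis, by 0.21 (adjusted p = 0.0081), on the log2 scale from limma. For Pck1 and Agpat2 the HFD and chow samples did not overlap, by a narrow margin. The lowest HFD value of Pck1 was 12.6 and the highest chow value 12.58, and for Agpat2 both were 9.19 as rounded. The share of all genes for which both genotypes together do not overlap between diets was not computed. Lpl, lipoprotein lipase, fell by 0.88 (adjusted p = 0.0034 from limma), and Cd36, listed here too, is given above. Lpl was 10.84, 10.69, 10.17 and 10.36 in HFD NiPKO and 9.94, 10.26, 10.1 and 11 in HFD CTRL kidneys. On chow it was 11.54, 11.13, 11.56 and 10.94 in NiPKO and 11.16, 11.28, 11.48 and 11.33 in CTRL kidneys. Within each genotype the diets did not overlap, although HFD CTRL replicate 4 came close to the chow range. In CTRL kidneys alone Lpl fell by 0.99 (SE 0.20, adjusted p = 0.038 from limma), like 0.388% of all genes, and this call held without HFD CTRL replicate 4 and was lost without any of the other 7 CTRL samples (adjusted p up to 0.14). Summed over 8 adipocyte markers, 5 of which are also in another list, the linear level was 1937 to 3312 in HFD NiPKO, 1364 to 1730 in HFD CTRL, 1844 to 2656 in Chow NiPKO and 1503 to 1781 in Chow CTRL kidneys. For NiPKO against CTRL on HFD all 8 lay above 0, with a median of 0.30. On chow 5 of 8 lay below 0, with a median of -0.04, and Car3 had the highest value, 1.12. Of these 8 genes, 3 lay above the median gene level, and Adipoq, the defining adipocyte hormone, averaged 4.31. Car3, carbonic anhydrase 3, was higher by 1.95 on the log2 scale in NiPKO than in CTRL kidneys on HFD (adjusted p = 0.0073 from limma). Their part in the PPARγ target values was not tested.

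The 9 measured PPARβ/δ targets are, but for 1, shared with the lists above. All 9 lay below 0 for NiPKO against CTRL on HFD, with a median of -0.15, and 8 of 9 above 0 for HFD against chow in CTRL kidneys, with a median of 0.15. Only Acadvl was called, for diet averaged over the genotypes, with 3.14% of all genes called, and for genotype averaged over the diets, with 2.68%. Angptl4, an inhibitor of lipoprotein lipase, had a log2 fold change of -0.61 on HFD in NiPKO kidneys (adjusted p = 0.23 from limma) and -0.09 in CTRL kidneys.

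None of the 14 measured RXR dimer partners was called in any of the 7 comparisons, in which 0 to 3.14% of all genes were called, so that a count of 0 of 14 is near the background. Their medians lay between -0.04 and 0.04. The smallest adjusted p belonged to Rarb, the retinoic acid receptor β, with -0.03 for NiPKO against CTRL on HFD and -0.45 on chow (adjusted p = 0.078 from limma). Nr1i2, the pregnane X receptor, had -0.53 for NiPKO against CTRL on HFD (adjusted p = 0.28 from limma), and Nr1h4, the bile acid receptor FXR, 0.26 for HFD against chow in NiPKO kidneys (adjusted p = 0.24 from limma).

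Among 13 coactivators, Ncoa1, the steroid receptor coactivator SRC-1, fell in NiPKO kidneys by 0.16 averaged over the diets (SE 0.03, adjusted p = 0.013 from limma), like 1.83% of all genes. It was 9.09, 9.08, 9.12 and 9.05 in HFD NiPKO and 9.29, 9.23, 9.2 and 9.21 in HFD CTRL kidneys, and 9.01, 8.94, 9.12 and 8.99 in Chow NiPKO and 9.19, 9.22, 9.19 and 9.17 in Chow CTRL kidneys. The genotypes did not overlap on either diet, which was the case for 6.88% of all genes on HFD and 7.44% on chow. Besides the Ppargc1a probe set no other coactivator was called. Pprc1, the PGC-1-related coactivator, had 0.27 for HFD against chow in NiPKO kidneys (adjusted p = 0.059 from limma) and 0.03 in CTRL kidneys. None of the 7 measured corepressors was called in comparisons with 0 to 3.14% of all genes called, and the largest difference between 2 groups was 0.19, for Gps2 on HFD in NiPKO kidneys (adjusted p = 0.13 from limma).

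Of 16 genes that make, carry or degrade retinoids, 1 rose and 1 fell on HFD over both genotypes, where 1.43% and 1.71% of all genes did. Aldh1a1, which oxidises retinaldehyde to retinoic acid, rose by 0.75 (SE 0.19, adjusted p = 0.044 from limma). It was 8.15, 8.59, 8.84 and 8.95 in HFD NiPKO and 8.92, 9.34, 9.02 and 8.23 in HFD CTRL kidneys, against 8.86, 7.51, 7.89 and 8.45 in Chow NiPKO and 8, 8.13, 7.53 and 7.68 in Chow CTRL kidneys. The diets overlapped in NiPKO kidneys only, and the call held without 4 of the 16 samples. Rdh10, which oxidises retinol to retinaldehyde, fell by 0.16 (adjusted p = 0.045 from limma). Retsat is given above among the PPARα targets. Cyp26b1, which degrades retinoic acid, had -0.06 for NiPKO against CTRL on HFD and -0.80 on chow (adjusted p = 0.18 from limma). Dhrs3, which turns retinaldehyde back into retinol, had 0.02 for NiPKO against CTRL on HFD and -0.34 on chow (adjusted p = 0.13 from limma). Stra6, a membrane receptor of retinol-binding protein, had -0.06 on HFD and -0.28 on chow (adjusted p = 0.19 from limma), and Crabp2, a carrier of retinoic acid in the cell, had -0.40 for HFD against chow in NiPKO kidneys (adjusted p = 0.11 from limma) and 0.12 in CTRL kidneys. At the paper's thresholds 4 retinoid genes were higher and 4 lower in NiPKO than in CTRL kidneys on chow, where 4.42% of all genes passed them. In that comparison 9 of the 16 genes lay above 0 and 7 below, with a median of 0.08 and values from -0.80 to 0.66. Cyp26b1, Dhrs3 and Stra6 are thus named from the 7 below 0 only.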

How the data were processed

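The deposited values were normalized log2 values of 41345 probe sets on Affymetrix Mouse Gene 2.0 ST arrays, hybridised with Trizol-extracted total RNA. Partek is named in the submitters' processing notes. How background was corrected and arrays were normalized is not stated there or in the methods. Of the probe sets 23521 carried 1 gene symbol, 1820 several and 16004 none in the platform annotation. A gene with several probe sets was represented by the brightest, without a filter on dim ones. Groups were taken from the labels. The fit used limma 3.58.1 (lmFit, eBayes) under R 4.3.3 with 1 mean per group and residual and prior degrees of freedom of 12 and 4.17, after a test on simulated data. The receptors, gene lists and comparisons were chosen with earlier results of these data known. Named genes were all receptors, up to 6 genes per list with the smallest p, targets called or measured by RT-PCR in the study, and the 3 genes most like each receptor. Predicted, olfactory and small RNA genes were not ranked. Listed genes without a single-symbol probe set were not used here. The alternatives were a fit of the 2 groups alone, quantile normalization, median centring, only the brighter genes, averaging over the probe sets of a gene, a trended robust prior, the methods' t-test, a block for the replicate number, and a fit without each array. Scanner intensities were not used here, so background correction was not varied. The number of arrays limits the precision.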

Additional observations from a re-analysis of the deposited data

Results flagged for a closer look

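In 104 groups of 4 samples, those of the 6 receptors and 20 other genes, 4 held a sample whose gap to its nearest neighbour was above Dixon's critical value, which chance gives in about 5% of groups. No receptor was among them. Eci1 in Chow CTRL replicate 4 was 9.23, below 9.5 to 9.52 in the other 3. Slc2a4 in Chow NiPKO replicate 2 was 6.99, below 7.35 to 7.39. Agpat2 in Chow NiPKO replicate 3 was 9.17, above 9.03 to 9.05. The Ppargc1a probe set in HFD NiPKO replicate 3 was 10.07, above 9.96 in the other 3.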

How the results depend on the processing

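Signal over background is not given for these values, so that no limit of detection can be set for dim probe sets such as that of Rxrg. For the 6 receptors in 7 comparisons, 773 alternative values were computed, of which 705 kept direction and side of the threshold, 61 changed sign, 6 lost the call and 1 gained it. The count of receptors called for HFD against chow over both genotypes was 1, was 0 with median centring and ranged from 0 to 1 without single arrays. In NiPKO kidneys it was 1 with the brighter genes only (Ppara, adjusted p = 0.046 from limma). That fit called 308 of 11090 genes, against 58 of 22180 in the main fit, and the cause of the difference was not tested. Fits of the 2 groups alone, and the methods' t-test, called fewer genes in all: 75 and 47 against 283 for genotype on chow, 43 and 8 against 183 on HFD, and 14 against 125 for diet in CTRL kidneys with the 2 groups alone. Under both, none of the calls of Acaa2, Eci1, Lpl, Etfdh and Slc2a4 between 2 groups held. Those of the Ppargc1a probe set were lost with the methods' test only (adjusted p = 0.076 on HFD and 0.082 on chow). With median centring the share of genes called as higher at the paper's thresholds was 37.5% against 52.7% for genotype on chow, 33.9% against 49.6% for diet in CTRL kidneys and 46.3% against 35.5% for the interaction.

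All receptor values that changed sign were 0.075 or smaller in size before, and the cause was not tested. In log2 units, median centring gave -0.017 for Ppard (NiPKO against CTRL on chow), -0.0045 for Ppard and -0.0013 for Pparg (the same over both diets) and -0.011 for Rxrb (HFD against chow over both genotypes). Quantile normalization gave -0.017 for Ppard (NiPKO against CTRL on HFD), 0.011 and -0.02 for Rxrb (HFD against chow in CTRL and in NiPKO kidneys), -0.019 for Pparg (the same in NiPKO kidneys), -0.0047 for Rxrb (over both genotypes), and -0.053 for Ppard and -0.031 for Rxrb (interaction).

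Without single arrays, NiPKO against CTRL on chow ranged from -0.088 to 0.099 for Ppard, -0.073 to 0.00072 for Pparg, -0.012 to 0.065 for Rxra and -0.092 to 0.091 for Rxrg, and on HFD from -0.027 to 0.055 for Ppard and -0.00057 to 0.16 for Pparg. HFD against chow in CTRL kidneys ranged from -0.044 to 0.028 for Rxrb and -0.054 to 0.13 for Rxrg, and in NiPKO kidneys from -0.042 to 0.11 for Pparg, -0.043 to 0.02 for Rxra, -0.011 to 0.064 for Rxrb and -0.035 to 0.52 for Cyp4a14. Over both diets the genotype difference ranged from -0.036 to 0.058 for Ppard and -0.023 to 0.056 for Pparg, and over both genotypes the diet difference from -0.069 to 0.0047 for Pparg, -0.01 to 0.028 for Rxrb and -0.082 to 0.01 for Rxrg. The interaction ranged from -0.083 to 0.1 for Ppard and -0.0037 to 0.073 for Rxrb, and -0.15 to 0.00047 for Acadvl.

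Whether the replicate numbers of the labels pair the samples could not be decided, since no chance level was computed for the counts that follow. Of 24 same-numbered pairs, 3 correlated above 0.1 in their deviations from the group means (range -0.11 to 0.17). Their median r was 0.017, against -0.0015 for the other pairs, and 7 of 16 arrays correlated best with their own number. With the replicate number as a block, 224 against 283 genes were called for genotype on chow and 101 against 183 on HFD. Ppara kept its call for diet over both genotypes under the block. Calls were lost for Etfdh on chow (adjusted p = 0.065), for Acaa2, Eci1 and Lpl for diet in CTRL kidneys (0.066, 0.079 and 0.087), for Acaa2 and Retsat for genotype over both diets (0.064 and 0.052), and for Acot3, Cd36, Acadm and Aldh1a1 for diet over both genotypes (0.075, 0.084, 0.077 and 0.083), all from limma.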

Other observations

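Ppard also has a probe set (17335308) that is annotated to Ppard and to 1810013A23Rik together and was left out of the tests. It lay between 5.26 and 5.98 and was called in none of the comparisons.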
